A study of Homo sapiens with 13 samples.

Results

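Human neurons made from embryonic stem cells by forced expression of NEUROG2 were compared at day 12 of culture, after 6 days without doxycycline, and at day 6, at the end of 6 days with it. The comparison used 4 of the 13 libraries of the series, 2 at day 12 and 2 at day 6, chosen by their labels for the day and for growth without added FGF2. All 4 cultures were H9, an established human embryonic stem cell line, in a stable form with a doxycycline-inducible human NEUROG2, and each library came from a single well of a 6-well plate. Every culture received 1 ug/ml doxycycline for its first 6 days, in E8 stem cell medium for 2 days and in 3N medium from then on. The day 12 cultures then had 6 more days in 3N medium without doxycycline. Age and loss of the inducer therefore changed together and cannot be told apart within these 4 libraries. The descriptions of the day 12 libraries mention 6 days of growth, while their titles, their day field and the sum of their culture periods give 12 days, which were used here. Replicates 1 and 2 stand for the titles' hES-N2G1 and hES-N2G2, although every source name reads hES-N1. The labels do not say what the numbers mark or whether the line is a single clone. The p-values therefore measure the spread between replicate libraries, which may be technical. That spread was estimated over these 4 libraries and the 4 with FGF2 together. The labels also do not say which promoter reads the inducible gene. Further groups are used for comparison at the end. They are 4 libraries of the same days with FGF2, and 2 single libraries of a separate run, at day 11 and day 5, in which doxycycline was given throughout, with uninduced libraries of that run at day 11, day 5 and day 0.

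NEUROG2 is a proneural factor, a basic helix-loop-helix protein that binds E-box sequences, switches on further neuronal factors such as NEUROD1 and takes progenitors out of the cell cycle. Young neurons first express genes of migration and axon growth, and acquire ion channels, transmitter receptors and synaptic proteins as they mature. Proneural factors themselves are normally present only for a short time in a developing neuron. They also switch on ligands of the Delta family, which act through Notch receptors on neighbouring cells to hold those cells back as progenitors.

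The deposited values were whole read counts per gene, 24093424 and 22802501 in all in the day 12 libraries and 23555246 and 23775362 in the day 6 libraries. Levels are given as counts per 1000000 reads (CPM) on library sizes scaled by the trimmed mean of M-values (TMM). Of 20142 genes with enough reads to be tested, 12895 (64%) differed between day 12 and day 6 at an adjusted p under 0.05 in edgeR's quasi-likelihood test with Benjamini-Hochberg adjustment. Of all genes tested, 6395 (31.7%) were higher and 6500 (32.3%) lower at day 12, and the median change was -0.0045 on the log2 scale. A change of at least 2-fold was called for 3497 higher genes (17.4%) and 2934 lower genes (14.6%). The values of the 2 days did not overlap for 16919 genes (84%). Calls were thus the rule over the whole transcriptome, and the counts for gene groups are read against these shares. For every gene given below as higher, lower, risen or fallen, both day 12 libraries lay on the same side of both day 6 libraries. In bulk RNA, fewer cells of a type and less RNA per cell cannot be told apart.

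The induced gene checks the labels. NEUROG2 had 54.7 and 49.3 CPM in the day 12 cultures, against 7708 and 7544 CPM in the day 6 cultures. The day 12 libraries lay far below both day 6 libraries, with a log2 change of -7.20 (standard error 0.09, adjusted p 1.19e-16 by edgeR). The counts do not separate the endogenous gene from the inducible copy. Pan-neuronal genes were high on both days. STMN2, a microtubule regulator of growing axons, had 4404 and 4382 CPM at day 12, against 3063 and 3258 CPM at day 6 (log2 change 0.47, adjusted p 5e-05 by edgeR). DCX, the doublecortin of migrating neurons, had 4508 and 4395 CPM at day 12, against 2229 and 2159 CPM at day 6 (log2 change 1.02). MAP2, the dendritic microtubule protein, had 1879 and 1821 CPM at day 12, against 854 and 852 CPM at day 6 (log2 change 1.12). Each of these neuronal genes was thus well expressed before the 6 further days and rose moderately over them. TUBB3, the neuronal beta-tubulin, had 124 and 136 CPM at day 12, against 239 and 292 CPM at day 6, and fell (log2 change -1.03), with 35.8% of its exonic length shared with another gene that unstranded reads cannot separate.

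Several defining markers of other cell types were near 0 on both days. Over both libraries of a day, POU5F1, the pluripotency factor OCT4, had 1 read at day 12 and 4 reads at day 6. NANOG, a second pluripotency factor, had 1 read at day 12 and 0 at day 6. SOX10 of Schwann cells and oligodendroglia, MAG of myelin and AIF1 of microglia had 0 reads in all 4 libraries, and GFAP of astroglia had 1 read on each day. Other genes of the same lists did move. All 8 tested genes of the pluripotency list were lower, with a summed level over its 14 members of 299.6 and 303 CPM at day 12 and 646 and 637 CPM at day 6. Of 7 tested astroglia genes 2 were higher, 4 lower and 1 not called (sums 419.9 and 420.3 CPM at day 12, 548 and 528 CPM at day 6). Of 7 tested genes of the oligodendroglia and Schwann list 3 were higher, 4 lower and 0 not called (sums 38 and 34.4 CPM at day 12, 46.4 and 50.3 CPM at day 6). Of 9 tested genes of mesenchyme, endothelium and microglia 3 were higher, 6 lower and 0 not called (sums 11.7 and 11.4 CPM at day 12, 48.9 and 45.9 CPM at day 6). Among the higher genes, PTPRC, the leukocyte antigen CD45, had 3.57 and 2.77 CPM at day 12, against 0.172 and 0.129 CPM at day 6, and CSF1R, a receptor of microglia, had 0.608 and 0.512 CPM at day 12, against 0.129 and 0.0429 CPM at day 6, a rise that was not called without replicate 2 of day 6. S100B of astroglia (0.608 and 0.598 CPM at day 12, against 0 and 0.0429 CPM at day 6) and FOXD3 of the neural crest (1.05 and 0.896 CPM at day 12, against 0.129 and 0.0429 CPM at day 6) were higher from similarly few reads. The part of such cells in the results that follow was not tested.

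The proneural factors fell as a group. All 13 tested members of the list of 16 basic helix-loop-helix factors, NEUROG2 included, were lower at day 12, with a median log2 change of -5.58, where 32.3% of all genes tested were lower. NEUROD1, a direct follower of NEUROG2 in neurogenesis, had 6.08 and 6.49 CPM in the day 12 cultures, against 306 and 295 CPM in the day 6 cultures (log2 change -5.58, standard error 0.11, adjusted p 4.73e-15 by edgeR). NHLH1, a factor of newly born neurons, had 16.4 and 15.3 CPM at day 12, against 2039.9 and 2066 CPM at day 6 (log2 change -7.02). NEUROD4, which acts beside NEUROD1, had 9.49 and 8.84 CPM at day 12, against 525 and 515 CPM at day 6 (log2 change -5.83). The libraries of each day lay close together and the days far apart for all 3. OLIG3, a factor of progenitors in the dorsal hindbrain and spinal cord, had 0 reads in both day 12 libraries, against 29.95 and 34.6 CPM in the day 6 libraries, which makes it at least 517-fold lower if 3 reads over the day 12 group are taken as the floor. The related NEUROG1 had 0.122 and 0.512 CPM at day 12, against 24 and 25.9 CPM at day 6, and NEUROD2 had 0.527 and 0.384 CPM at day 12, against 44.9 and 40.6 CPM at day 6. NHLH2, the close relative of NHLH1, fell less and remained well expressed, with 257 and 256 CPM at day 12, against 969 and 989 CPM at day 6 (log2 change -1.93). The plot of CPM by library shows the separation for these and other members.

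Promoters of the proneural genes are printed because this group moved as a whole and its factors bind E-boxes. RefSeq promoters on GRCh38.p14, from 250 bases before to 50 after each start, were found for 12 of the 16 genes, 13 promoters in all. The 250 bases before the start were searched on both strands. The E-box CAGATG was present in 4 of the 13 promoters (30.8%) and the E-box CATATG in 2 (15.4%), against 12.2% and 2.63% of all 35116 promoters. Among the 17163 promoters of genes tested here the shares were 9.12% and 1.48%. The first pair of lines shows CAGATG in capitals in NHLH1, 210 bases before the start (chr1:160366836-160366891, + strand), and in NEUROD2, 138 bases before (chr17:39608028-39608083, - strand). The third line shows CATATG, a palindrome, in the same NEUROD2 promoter, 37 bases before the start (chr17:39607927-39607982, - strand). A match says only that these letters stand in the window.
NHLH1: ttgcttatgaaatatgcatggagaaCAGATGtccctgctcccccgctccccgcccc
NEUROD2: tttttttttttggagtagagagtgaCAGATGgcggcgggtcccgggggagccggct
NEUROD2: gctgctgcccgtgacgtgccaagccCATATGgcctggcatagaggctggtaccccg

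**Figure D1:**
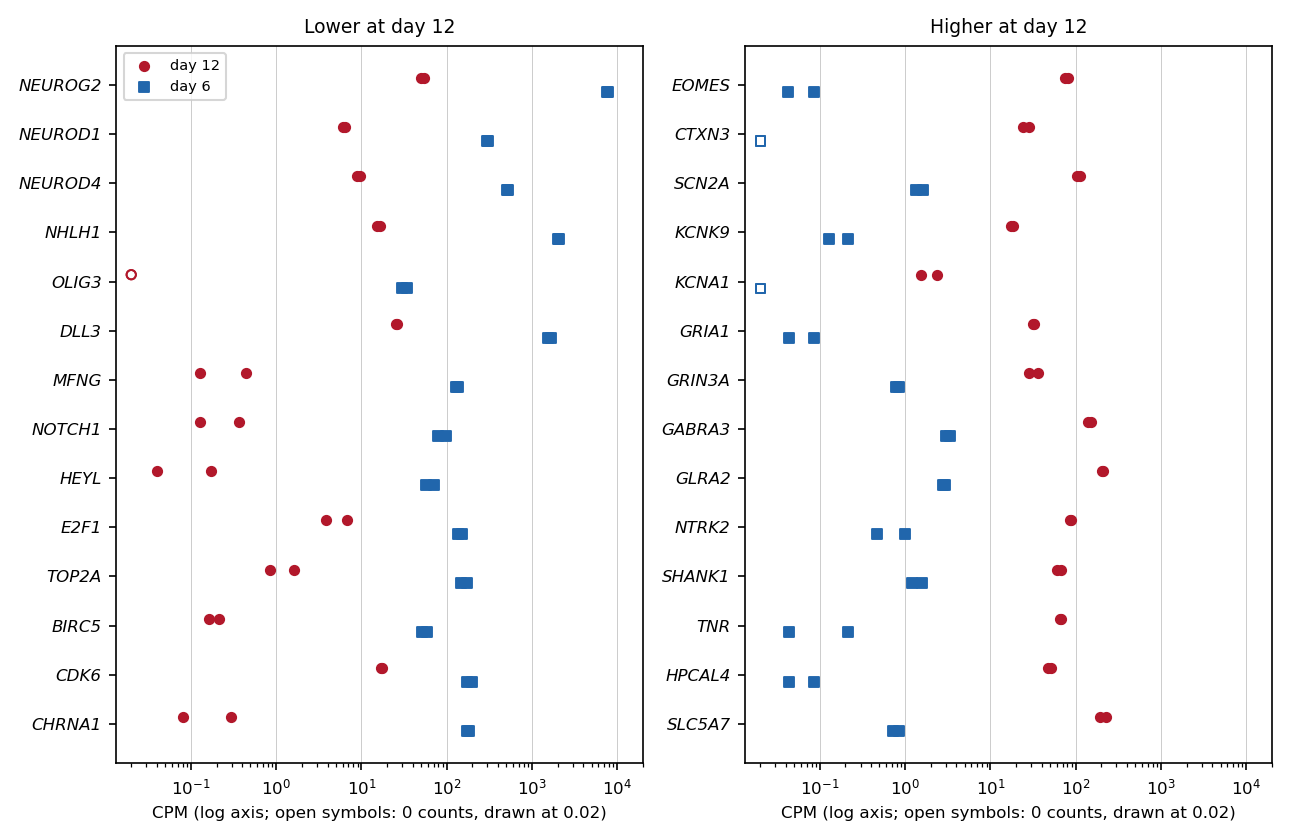
Level in CPM on a log axis of 14 genes lower at day 12 (left) and 14 genes higher at day 12 (right), with both libraries of each day as points (day 12 circles, day 6 squares) and open symbols for 0 counts. The days do not overlap for any gene shown, nor for 84% of all genes tested. NEUROG2 lay at 54.7 and 49.3 CPM at day 12 against 7708 and 7544 CPM at day 6.

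Most genes of the Notch pathway fell. Of its 22 tested members, 2 were higher, 16 lower and 4 not called, with a median log2 change of -3.01. DLL3, a Delta-like protein that acts within the cell that makes it, had 25.4 and 26.2 CPM in the day 12 cultures, against 1685 and 1539.7 CPM in the day 6 cultures (log2 change -5.97, adjusted p 1.53e-15 by edgeR). The fringe glycosyltransferases, which tune the choice of Notch ligand, nearly disappeared in the case of MFNG (0.446 and 0.128 CPM at day 12, against 135 and 129 CPM at day 6) and LFNG (0.73 and 0.939 CPM at day 12, against 75.5 and 79.9 CPM at day 6), while RFNG was not called (21.1 and 23 CPM at day 12, against 19.5 and 22.7 CPM at day 6). Among the receptors NOTCH1 had 0.365 and 0.128 CPM at day 12, against 98.6 and 79.4 CPM at day 6 (log2 change -8.45). NOTCH4 rose slightly, with 10.2 and 10.3 CPM at day 12, against 6.32 and 5.66 CPM at day 6 (log2 change 0.77). All 7 HES and HEY repressors of the list, the usual targets of Notch, were lower, with sums of 56.2 and 60.4 CPM at day 12 and 252 and 244 CPM at day 6. HEYL fell furthest, with 0.0405 and 0.171 CPM at day 12, against 71.5 and 56.8 CPM at day 6. The ligands DLL1 (10.4 and 12.8 CPM at day 12, against 12.9 and 11.8 CPM at day 6) and JAG2 (24.7 and 20.1 CPM at day 12, against 21.5 and 24.8 CPM at day 6) were not called. DNER, a Notch-related transmembrane protein of neurons, rose, with 299 and 293 CPM at day 12, against 54.2 and 61.4 CPM at day 6 (log2 change 2.36).

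Most progenitor genes fell. Of 13 tested members of the neural progenitor list 2 were higher, 10 lower and 1 not called, with a median log2 change of -1.40. NES, the intermediate filament nestin, had 457 and 496 CPM at day 12, against 1347 and 1362 CPM at day 6 (log2 change -1.51). SOX2, a factor of stem cells and neural progenitors, had 67.4 and 65.6 CPM at day 12, against 113 and 105 CPM at day 6 (log2 change -0.71). Both were still clearly present at day 12. SOX1, a factor of early neural progenitors, was low but rose, with 1.87 and 2.56 CPM at day 12, against 0.043 and 0.257 CPM at day 6 (log2 change 3.84). VIM, the intermediate filament vimentin, rose, with 331 and 356 CPM at day 12, against 56 and 49.1 CPM at day 6 (log2 change 2.71), and 24.4% of its exonic length is shared with another gene. The inhibitors of differentiation, which block basic helix-loop-helix factors, moved in opposite directions. ID1 had 0.284 and 0.341 CPM at day 12, against 25.4 and 22.9 CPM at day 6 (log2 change -6.25). ID2 had 22.5 and 23.2 CPM at day 12, against 2.79 and 2.75 CPM at day 6 (log2 change 3.04), and ID4 had 150.3 and 166 CPM at day 12, against 5.41 and 4.85 CPM at day 6 (log2 change 4.94). In the whole list of BMP, TGF-beta and ID genes, 10 of 22 tested members were higher, 10 lower and 2 not called. The ligands TGFB1 (2.03 and 2.52 CPM at day 12, against 33.4 and 30.2 CPM at day 6) and TGFB3 (5.88 and 7.04 CPM at day 12, against 60.3 and 69.4 CPM at day 6) were among those that fell. Of the pluripotency list, DPPA4 had 0.122 and 0.256 CPM at day 12, against 78.8 and 71.4 CPM at day 6, and ZFP42 had 0.446 and 0.213 CPM at day 12, against 51.2 and 64.5 CPM at day 6, whereas LIN28A, an inhibitor of let-7 processing, fell only slightly (108 and 119 CPM at day 12, against 139.7 and 147 CPM at day 6, log2 change -0.33).

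Genes of cell division fell together. All 40 members of the mitosis list were lower at day 12, 38 of them by at least 2-fold, with a median log2 change of -4.79. Their summed level was 208 and 209 CPM at day 12 and 1753 and 1528 CPM at day 6. TOP2A, the topoisomerase of dividing cells, had 0.851 and 1.62 CPM in the day 12 cultures, against 172 and 146 CPM in the day 6 cultures (log2 change -7.01, standard error 0.24, adjusted p 1.01e-12 by edgeR). BIRC5, the survivin of the mitotic spindle, had 0.162 and 0.213 CPM at day 12, against 59 and 50.6 CPM at day 6 (log2 change -8.16). UBE2C, the ubiquitin-conjugating enzyme of the anaphase-promoting complex, had 0.203 and 0.171 CPM at day 12, against 50.8 and 44.4 CPM at day 6 (log2 change -7.95). At day 12 these genes were nearly silent in both libraries, though not at 0. AURKB, the kinase of the chromosomal passenger complex, had 3 reads over the day 12 group and was 364-fold lower there, with a 95% counting interval of 124 to 1765.

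For DNA replication, 28 of 33 members were lower, 2 higher and 3 not called, with a median log2 change of -1.51. RRM2, the ribonucleotide reductase subunit made in S phase, had 0.243 and 0.171 CPM at day 12, against 69.6 and 61.8 CPM at day 6 (log2 change -8.27), and shares 20.2% of its exonic length with another gene. TK1, the thymidine kinase of S phase, had 0 reads at day 12 and 9.2 and 6.69 CPM at day 6, which is at least 127-fold lower. These S-phase enzymes were thus at or near 0 at day 12. The replicative helicase MCM2 to MCM7 was still present, with summed levels of 211 and 207 CPM at day 12, against 505 and 490.0 CPM at day 6, and 5 of 6 subunits called lower. MCM7 had 76.8 and 70.4 CPM at day 12, against 235 and 236 CPM at day 6, and MCM4 was not called (61.1 and 61.4 CPM at day 12, against 61.1 and 53.4 CPM at day 6). LIG1, the DNA ligase also used in repair, rose, with 29.5 and 29.4 CPM at day 12, against 20.3 and 17.3 CPM at day 6 (log2 change 0.65). Of 25 tested genes of G1 control 3 were higher, 16 lower and 6 not called. E2F1, the factor that drives entry into S phase, had 3.81 and 6.83 CPM at day 12, against 152 and 136 CPM at day 6 (log2 change -4.76), and E2F2 had 0 reads at day 12 and 11.8 and 10.5 CPM at day 6, at least 179-fold lower. CDK6, a kinase of G1, had 16.9 and 17.6 CPM at day 12, against 197 and 175 CPM at day 6 (log2 change -3.43). The inhibitor CDKN1B was not called (92.5 and 92.6 CPM at day 12, against 99.9 and 92.4 CPM at day 6), CDKN1C fell (114 and 114 CPM at day 12, against 380.1 and 403 CPM at day 6) and CDKN2B rose (4.5 and 5.25 CPM at day 12, against 1.89 and 1.33 CPM at day 6).

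Promoters of mitotic genes are printed because these genes moved as a block and are known to share the cell cycle homology region (CHR), a motif bound by the DREAM and B-MYB complexes. The CHR was searched as TTTGAA and an inverted CCAAT box as ATTGG, on both strands of the 250 bases before the start. Of 38 promoters of 34 mitosis genes, 23 (60.5%) held the CHR, 29 (76.3%) the CCAAT box and 18 (47.4%) both. The shares over all 35116 promoters were 13.3%, 32.0% and 4.69%. Of 40 promoters of 30 replication genes, 1 (2.5%) held the CHR, 26 (65%) the CCAAT box, and 3 (7.5%) the E2F core TTTCGCGC, which 0.439% of all promoters held. The E2F core stood in 1 mitosis promoter (2.63%). Capitals mark the CHR in CDC20 (chr1:43358891-43358946, + strand, 65 bases before the start), CCNB2 (chr15:59105092-59105145, + strand, 29 bases before) and TOP2A (chr17:40418017-40418072, - strand, 151 bases before, where it reads TTCAAA on the gene's strand). In MCM7 they mark the E2F core (chr7:100101398-100101431, - strand, 9 bases before).
CDC20: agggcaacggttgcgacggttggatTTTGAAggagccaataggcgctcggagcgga
CCNB2: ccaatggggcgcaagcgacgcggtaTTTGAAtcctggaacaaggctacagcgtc
TOP2A: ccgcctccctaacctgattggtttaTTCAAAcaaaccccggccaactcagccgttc
MCM7: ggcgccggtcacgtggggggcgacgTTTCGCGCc

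Transcription factors that mark classes of neurons moved in both directions. Of 12 tested LIM homeodomain, EBF and ONECUT factors 7 were higher, 4 lower and 1 not called. ONECUT3 had 928 and 955 CPM in the day 12 cultures, against 48.7 and 53.7 CPM in the day 6 cultures (log2 change 4.20, adjusted p 7.94e-15 by edgeR), and the related ONECUT2 had 1088 and 1133 CPM at day 12, against 556 and 523 CPM at day 6 (log2 change 1.04). LHX9 had 501 and 404 CPM at day 12, against 141 and 143 CPM at day 6 (log2 change 1.67). ONECUT and LHX9 factors were thus abundant at day 12, whereas EBF2, of the COE family, fell, with 157 and 136 CPM at day 12, against 351 and 327 CPM at day 6 (log2 change -1.21). This contrast did not hold by family, since other LIM factors of the list were called lower and other EBF factors higher. Of 13 tested factors of sensory and autonomic neurons 4 were higher, 5 lower and 4 not called. ISL1, shared by motor and sensory neurons, had 349.8 and 381 CPM at day 12, against 129.9 and 158 CPM at day 6 (log2 change 1.35). POU4F1, the sensory factor BRN3A, had 109 and 91.1 CPM at day 12, against 83.8 and 85.5 CPM at day 6 and was not called, though 7 of 12 alternative settings called it higher (log2 change 0.23 to 0.36). TLX3, a factor of excitatory sensory interneurons, had 22.9 and 21.2 CPM at day 12, against 90.03 and 83.6 CPM at day 6, and fell (log2 change -1.98). GATA2, a zinc-finger factor of several neuronal and blood lineages, had 0.162 and 0.0427 CPM at day 12, against 21.8 and 16.6 CPM at day 6. Exonic length shared with another gene was 27.7% for POU4F1 and 16.3% for TLX3.

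Factors of cortical projection neurons split evenly, with 5 of 12 tested members higher, 5 lower and 2 not called. The cortical factors TBR1, FEZF2 and BCL11B had too few reads to be tested. EOMES, known as TBR2, marks intermediate progenitors of the cortex and unipolar brush cells of the cerebellum. EOMES had 82.1 and 75 CPM in the day 12 cultures, against 0.086 and 0.0429 CPM in the day 6 cultures, where it had 3 reads in all. The ratio was 1221, with a 95% counting interval of 418 to 5925 (adjusted p 4.12e-14 by edgeR). CUX2, of upper cortical layers, had 75.2 and 73.8 CPM at day 12, against 12.2 and 11.3 CPM at day 6 (log2 change 2.67). POU3F2, the factor BRN2, fell, with 127 and 130.0 CPM at day 12, against 376 and 359 CPM at day 6 (log2 change -1.52). Among repressors, MYT1L, which silences non-neuronal genes, had 152 and 141 CPM at day 12, against 19.9 and 21.6 CPM at day 6 (log2 change 2.82), while INSM1 (34.1 and 33 CPM at day 12, against 450.3 and 443 CPM at day 6) and ST18 (17.2 and 17.5 CPM at day 12, against 405 and 389 CPM at day 6), both of newly born neurons, fell. REST, the repressor of neuronal genes outside the nervous system, was low and not called (3.16 and 2.6 CPM at day 12, against 3.18 and 3.13 CPM at day 6).

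Most ion channel genes were higher at day 12. Of 13 tested sodium channel genes 10 were higher, 3 lower and 0 not called, where 31.7% of all genes tested were higher. SCN2A, the channel of early axon initial segments, had 112 and 104 CPM in the day 12 cultures, against 1.63 and 1.33 CPM in the day 6 cultures (log2 change 6.18, standard error 0.13, adjusted p 9.57e-15 by edgeR). SCN3A, the channel of embryonic neurons, had 275 and 270.5 CPM at day 12, against 67.3 and 68.7 CPM at day 6 (log2 change 2.00). SCN9A, of sensory and sympathetic neurons, had 115 and 106 CPM at day 12, against 23.7 and 24.8 CPM at day 6 (log2 change 2.20). Both were already expressed at day 6, when SCN2A was nearly absent. Per kilobase of exon, SCN3A was the higher at day 12, with 27.7 CPM per kilobase against 4.56 for SCN2A. SCN8A, which replaces SCN2A at mature initial segments, rose by the smallest factor of the 10 (83 and 85.1 CPM at day 12, against 60.6 and 60.6 CPM at day 6, log2 change 0.47). The muscle channel SCN4A fell (0.203 and 0.512 CPM at day 12, against 7.78 and 8.8 CPM at day 6).

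Of 16 tested calcium channel genes 11 were higher, 2 lower and 3 not called. The largest rises were in the auxiliary subunit CACNA2D2 (51.8 and 54.4 CPM at day 12, against 2.41 and 2.83 CPM at day 6, log2 change 4.34) and in the L-type pore CACNA1C (42.4 and 42.8 CPM at day 12, against 3.22 and 3.82 CPM at day 6, log2 change 3.59). The presynaptic N-type pore CACNA1B rose less (164 and 164 CPM at day 12, against 106 and 114 CPM at day 6, log2 change 0.58), and the T-type pore CACNA1H was not called (151 and 136 CPM at day 12, against 154 and 156 CPM at day 6). Of 44 tested potassium and HCN channel genes 29 were higher, 8 lower and 7 not called, with a median log2 change of 1.46. All 5 tested subunits of the Kv1 family rose, with sums of 79.4 and 78.9 CPM at day 12 and 9.71 and 9.36 CPM at day 6. KCNA2 gave most of these reads (71.3 and 72 CPM at day 12, against 8.72 and 8.11 CPM at day 6), and KCNA1 had 0 reads at day 6 and was at least 30.3-fold higher at day 12 (2.35 and 1.54 CPM). KCNK9, a leak channel of the two-pore family, had 18.6 and 17.3 CPM at day 12, against 0.129 and 0.215 CPM at day 6 (log2 change 6.67). KCNMA1, the large-conductance calcium-activated channel, had 41 and 43.8 CPM at day 12, against 3.09 and 4.59 CPM at day 6 (log2 change 3.46). KCNH6, of the ERG family, fell furthest (0.162 and 0.0854 CPM at day 12, against 4.94 and 5.28 CPM at day 6).

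Receptors for inhibitory transmitters showed the highest median change of the 44 lists. Of 19 tested GABA-A and glycine receptor genes 14 were higher, 1 lower and 4 not called, with a median log2 change of 3.77 when the gene at 0 is set to its bound and 4.11 as fitted. All 4 glycine receptor subunits rose, with sums of 226 and 234 CPM at day 12 and 4.64 and 4.81 CPM at day 6. Most of these reads came from GLRA2, the fetal alpha subunit, with 203 and 209.9 CPM in the day 12 cultures, against 2.75 and 2.96 CPM in the day 6 cultures (log2 change 6.17, adjusted p 1.95e-15 by edgeR). GABRA3, an alpha subunit of immature neurons, had 141 and 151 CPM at day 12, against 3.05 and 3.39 CPM at day 6 (log2 change 5.50). Of 5 tested chloride transporters, a family that sets the direction of these currents, 2 were higher, 2 lower and 1 not called. SLC12A5, the extruder KCC2, had 26.2 and 24.9 CPM at day 12, against 3.7 and 4.21 CPM at day 6 (log2 change 2.69) and SLC12A2, the importer NKCC1, had 32.3 and 34.3 CPM at day 12, against 82.7 and 71 CPM at day 6 (log2 change -1.21). The importer SLC12A1 also rose (1.38 and 1.2 CPM at day 12, against 0.129 and 0.0429 CPM at day 6) and the extruder SLC12A7 also fell (24.6 and 23 CPM at day 12, against 90.3 and 112 CPM at day 6, log2 change -2.09).

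Of 24 ionotropic glutamate receptor genes and their auxiliary subunits 18 were higher, 4 lower and 2 not called, with a median log2 change of 1.44. All 4 AMPA receptor subunits rose, to sums of 274 and 259 CPM at day 12, against 40.6 and 41.5 CPM at day 6. GRIA2, the subunit that limits calcium entry, had 123 and 112 CPM in the day 12 cultures, against 10.6 and 14 CPM in the day 6 cultures (log2 change 3.26, adjusted p 1.29e-11 by edgeR). GRIA1 had 31.4 and 32.1 CPM at day 12, against 0.043 and 0.0858 CPM at day 6, with 3 reads in all at day 6, and a ratio of 493 (95% counting interval 168 to 2391). GRIA1 was nearly absent at day 6, whereas GRIA4 (89.8 and 87 CPM at day 12, against 8.85 and 9.36 CPM at day 6) and GRIA3 (29.5 and 27.7 CPM at day 12, against 21.1 and 18.1 CPM at day 6) were then at measurable levels and rose as well. The 7 NMDA receptor subunits summed to 135 and 127 CPM at day 12 and 127 and 112 CPM at day 6, with 4 of them higher, 1 lower and 2 not called. GRIN2D, the embryonic subunit, had 46.7 and 37.5 CPM at day 12, against 115 and 98.3 CPM at day 6 (log2 change -1.34), GRIN2A had 44.7 and 55.8 CPM at day 12, against 8.64 and 11.6 CPM at day 6 (log2 change 2.31) and GRIN3A had 36.2 and 28.3 CPM at day 12, against 0.774 and 0.858 CPM at day 6 (log2 change 5.30). GRIN1, the subunit that every NMDA receptor needs, rose but stayed low (5.92 and 4.1 CPM at day 12, against 0.86 and 0.687 CPM at day 6, log2 change 2.69). Of 5 kainate receptor subunits 4 rose and GRIK2 fell (24.2 and 25.5 CPM at day 12, against 76.7 and 76.1 CPM at day 6, log2 change -1.62).

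Nicotinic receptors fell more often than they rose, with 4 of 13 tested members higher, 7 lower and 2 not called. CHRNA1, the alpha subunit of the muscle receptor, had 0.0811 and 0.299 CPM in the day 12 cultures, against 183 and 173 CPM in the day 6 cultures (log2 change -9.86, adjusted p 4.93e-15 by edgeR). The muscle subunits CHRND and CHRNG likewise lay at 0 and 0.0427 CPM and 0 and 0.0854 CPM at day 12, against 6.32 and 6.52 CPM and 4.6 and 3.65 CPM at day 6. CHRNA3, of the ganglionic receptor, had 13.8 and 13.6 CPM at day 12, against 182 and 202 CPM at day 6 (log2 change -3.81), and its partner CHRNB4 had 4.87 and 4.18 CPM at day 12, against 40.1 and 43.8 CPM at day 6 (log2 change -3.21). The subunits of the common brain receptor rose slightly instead, CHRNA4 with 74 and 62.6 CPM at day 12, against 37.1 and 38.5 CPM at day 6 (log2 change 0.86) and CHRNB2 with 106 and 105 CPM at day 12, against 78 and 88.1 CPM at day 6 (log2 change 0.35). CHRNB2 was not called without replicate 1 of day 6, and the count of higher members was 2 without that library or without either day 12 library.

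Of 15 tested genes of transmitter synthesis and transport 7 were higher, 2 lower and 6 not called. SLC17A6, the vesicular glutamate transporter VGLUT2, had 375 and 331 CPM in the day 12 cultures, against 83.9 and 97.1 CPM in the day 6 cultures (log2 change 1.96), and SLC17A7, the transporter VGLUT1, had 51.4 and 50.8 CPM at day 12, against 516 and 516 CPM at day 6 (log2 change -3.34). Per kilobase of exon, SLC17A6 led at day 12, with 72 CPM per kilobase against 8.5 for SLC17A7, and SLC17A7 led at day 6, with 85.9 against 18.5. Genes of the cholinergic terminal rose. SLC5A7, the choline transporter, had 192 and 225 CPM at day 12, against 0.731 and 0.858 CPM at day 6 (log2 change 8.02). SLC18A3, the vesicular acetylcholine transporter, had 49.5 and 56.2 CPM at day 12, against 10.01 and 13.8 CPM at day 6 (log2 change 2.15), and CHAT, choline acetyltransferase, had 10.3 and 13.8 CPM at day 12, against 1.59 and 1.24 CPM at day 6 (log2 change 3.08). GAD1 and SLC32A1, which define inhibitory neurons, had too few reads to be tested, and GAD2 was near 0 (0.405 and 0.469 CPM at day 12, against 0 and 0.0858 CPM at day 6). SLC6A3, the dopamine transporter, fell (0.365 and 0.384 CPM at day 12, against 23.6 and 26.8 CPM at day 6, log2 change -6.05), while TH, tyrosine hydroxylase, had 1.91 and 1.92 CPM at day 12 and 0 reads at day 6, at least 29.7-fold higher.

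Most synaptic genes rose on both sides of the synapse. Of 41 genes of the synaptic vesicle and its release 29 were higher, 10 lower and 2 not called, and of 35 postsynaptic scaffold and adhesion genes 27 were higher, 6 lower and 2 not called. SYT4, a synaptotagmin of dense-core vesicles, had 1796 and 1656 CPM at day 12, against 539.5 and 535 CPM at day 6 (log2 change 1.68). RIMS1, an active zone scaffold, had 85.8 and 80.7 CPM at day 12, against 15.3 and 15.7 CPM at day 6 (log2 change 2.43), and RAB3C, a vesicle GTPase, had 407 and 365 CPM at day 12, against 51.4 and 50.9 CPM at day 6 (log2 change 2.92). RPH3A, the rabphilin that binds such GTPases, had 5.96 and 8.84 CPM at day 12, against 0.043 and 0.172 CPM at day 6 (log2 change 6.04). Among postsynaptic genes SHANK1, a scaffold of excitatory synapses, had 66.9 and 60.9 CPM in the day 12 cultures, against 1.59 and 1.2 CPM in the day 6 cultures (log2 change 5.51, adjusted p 3.76e-13 by edgeR). CAMK2A, the alpha subunit of the calcium and calmodulin kinase, had 32.1 and 32.2 CPM at day 12, against 0.602 and 0.858 CPM at day 6 (log2 change 5.45). NLGN3, a neuroligin, had 81.4 and 79.7 CPM at day 12, against 2.36 and 2.49 CPM at day 6 (log2 change 5.05), and LRRTM3, a leucine-rich repeat adhesion protein, had 23.6 and 25.4 CPM at day 12, against 0.516 and 0.515 CPM at day 6 (log2 change 5.56). All 3 SHANK genes and all 3 neurexins of the list were higher, the neurexins with sums of 547 and 513 CPM at day 12 and 135 and 146 CPM at day 6. ARC, the activity-regulated protein, fell (2.19 and 1.88 CPM at day 12, against 14.9 and 11.9 CPM at day 6, log2 change -2.72), and SV2B fell while most vesicle proteins rose (2.39 and 3.07 CPM at day 12, against 9.15 and 8.5 CPM at day 6).

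Genes of the axonal and dendritic cytoskeleton mostly rose, by smaller factors. Of 30 genes 20 were higher, 7 lower and 3 not called, and their sum was 59042 and 58870.4 CPM at day 12 and 40542 and 42253 CPM at day 6. MAPT, the axonal protein tau, had 1158 and 1158 CPM in the day 12 cultures, against 202 and 227 CPM in the day 6 cultures (log2 change 2.43, adjusted p 6.12e-13 by edgeR). NEFL, the light neurofilament, had 4720.2 and 4904 CPM at day 12, against 1183 and 1281 CPM at day 6 (log2 change 1.97), and ANK3, the organiser of the axon initial segment, had 483 and 471 CPM at day 12, against 148 and 147 CPM at day 6 (log2 change 1.69). SPTBN4, a spectrin of that same segment, fell (18.7 and 15.8 CPM at day 12, against 113 and 122 CPM at day 6, log2 change -2.77), as did MAP1A (276 and 281 CPM at day 12, against 913 and 865 CPM at day 6, log2 change -1.67). TUBA1A, the main tubulin of young neurons, was not called (6981 and 7034 CPM at day 12, against 7682 and 8269 CPM at day 6), though 3 of 12 alternative settings called it lower. Calcium sensors moved both ways, with 7 of 15 tested genes higher, 5 lower and 3 not called. HPCA, hippocalcin, had 6.85 and 6.15 CPM at day 12, against 107 and 111 CPM at day 6 (log2 change -4.07), while its relatives HPCAL1 (128 and 128 CPM at day 12, against 13.9 and 12.1 CPM at day 6, log2 change 3.30) and HPCAL4 (51 and 47.1 CPM at day 12, against 0.043 and 0.0858 CPM at day 6) rose, HPCAL4 with 3 reads at day 6 and a ratio of 762 (95% counting interval 260.5 to 3698). CALB2, calretinin, had 22.7 and 24.6 CPM at day 12, against 0.602 and 1.03 CPM at day 6 (log2 change 4.85), and KCNIP1, a subunit of A-type potassium channels, had 41.2 and 49.7 CPM at day 12, against 0.387 and 0.172 CPM at day 6 (log2 change 7.32).

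Peptides and granins rose in 14 of 19 tested genes, fell in 4 and were not called in 1. NTS, neurotensin, had 205 and 246 CPM at day 12, against 14.7 and 11.6 CPM at day 6 (log2 change 4.10), and TAC1, the precursor of substance P, had 158 and 167 CPM in the day 12 cultures, against 5.24 and 6.82 CPM in the day 6 cultures (log2 change 4.75, adjusted p 9.41e-14 by edgeR). PDYN, prodynorphin, had 8.23 and 8.19 CPM at day 12 and 0 reads at day 6, at least 128-fold higher. PCSK1, an enzyme that processes such precursors, rose as well (697 and 702 CPM at day 12, against 228 and 246 CPM at day 6, log2 change 1.56). GAL, galanin, fell (0.122 and 0.128 CPM at day 12, against 5.29 and 5.32 CPM at day 6, log2 change -5.36).

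Of 16 tested genes of neurotrophin and GDNF signalling 10 were higher, 4 lower and 2 not called. NTRK2, the receptor of BDNF, had 88.5 and 86.5 CPM in the day 12 cultures, against 0.988 and 0.472 CPM in the day 6 cultures (log2 change 6.90, adjusted p 1.13e-13 by edgeR). BDNF itself rose (12.9 and 13.1 CPM at day 12, against 0.559 and 0.601 CPM at day 6, log2 change 4.48) and NTF3, neurotrophin 3, fell (0.162 and 0.299 CPM at day 12, against 8.85 and 7.85 CPM at day 6, log2 change -5.16). RET, the receptor kinase of the GDNF family, had 258 and 269.9 CPM at day 12, against 26.1 and 26.7 CPM at day 6 (log2 change 3.32), and its co-receptor GFRA2 had 50.8 and 51.7 CPM at day 12, against 14.3 and 10.9 CPM at day 6 (log2 change 2.02). GFRA1, the co-receptor of GDNF, fell slightly (347 and 367 CPM at day 12, against 473 and 475 CPM at day 6, log2 change -0.41). NGFR, the low-affinity neurotrophin receptor, had 311 and 278 CPM at day 12, against 582 and 569 CPM at day 6 (log2 change -0.97), with 27.1% of its exonic length shared with another gene. In the insulin list 4 of 12 tested genes were higher, 5 lower and 3 not called. The insulin receptor adaptors IRS1 (69.2 and 72.8 CPM at day 12, against 16.4 and 18.5 CPM at day 6, log2 change 2.02) and IRS4 (50.9 and 42.3 CPM at day 12, against 0.043 and 0.129 CPM at day 6, log2 change 9.01) rose, though not every adaptor of the list did. IGFBP2, an IGF-binding protein of progenitors, fell (18.7 and 15.8 CPM at day 12, against 333 and 293 CPM at day 6, log2 change -4.18). FGFR1 rose (138 and 149 CPM at day 12, against 46.6 and 47.6 CPM at day 6, log2 change 1.61), and FGFR3 fell (0.162 and 0.171 CPM at day 12, against 7.78 and 6.27 CPM at day 6, log2 change -5.36).

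**Figure D2:**
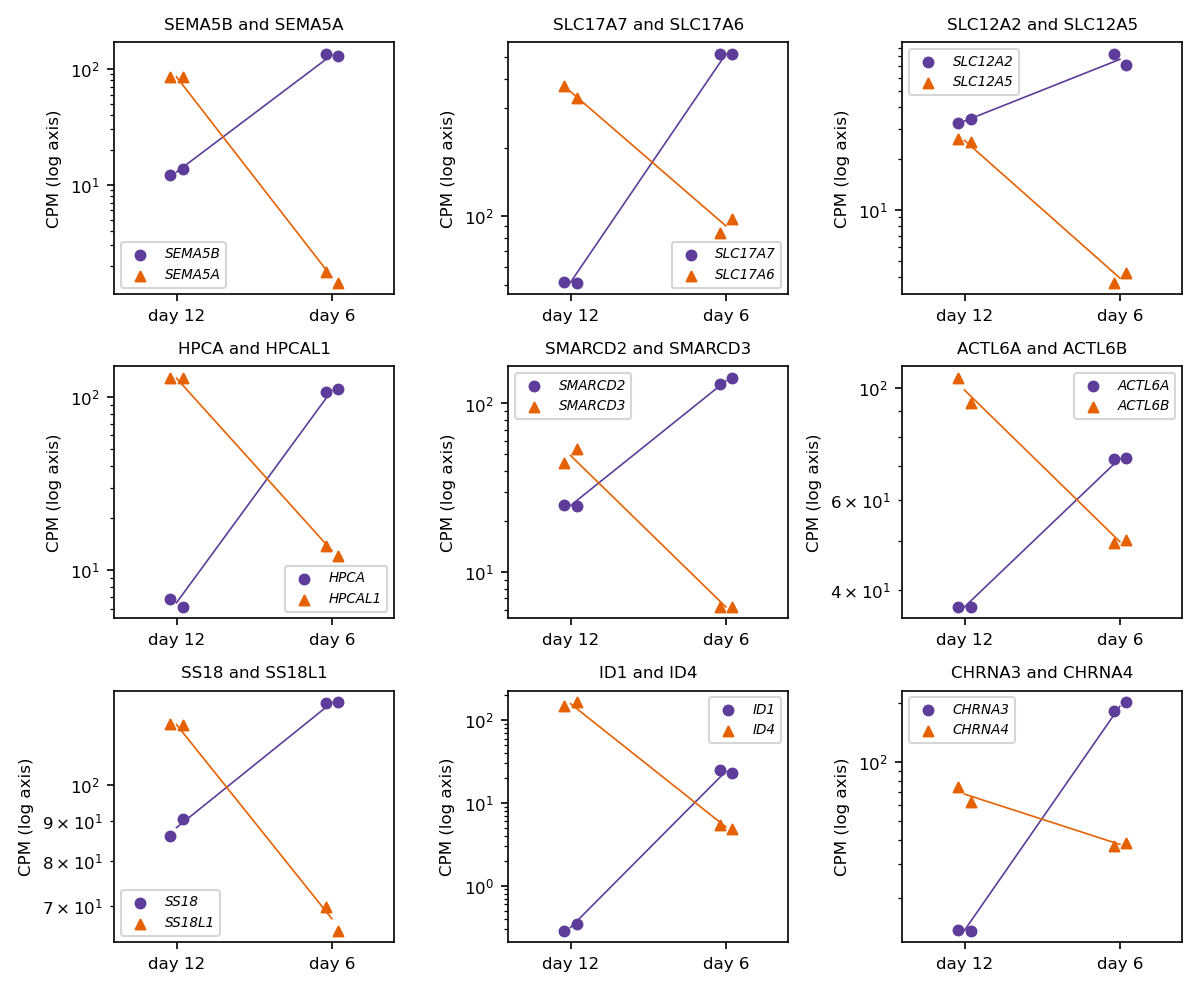
CPM on log axes of 9 pairs of related genes, with both libraries of each day as points and lines through the day means; axes differ between panels. The pairs were picked with the results known, each with 1 gene higher and the other lower at day 12. SEMA5A, for example, had 85.1 and 85.6 CPM at day 12 against 1.76 and 1.42 CPM at day 6. The choice does not show how often relatives part, and others moved together, such as the 3 SHANK genes, all higher.

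Guidance and matrix genes rose in more members than they fell. Of 35 ephrin, Slit, Robo and netrin genes 20 were higher, 8 lower and 7 not called, and of 31 semaphorin, plexin and neuropilin genes 17 were higher, 9 lower and 5 not called. PLXNA4, a semaphorin receptor, had 755 and 853 CPM in the day 12 cultures, against 19.9 and 20.6 CPM in the day 6 cultures (log2 change 5.31, adjusted p 5.97e-15 by edgeR). Of 8 EPHA receptors 7 rose, with sums of 409 and 402 CPM at day 12 and 127 and 126 CPM at day 6. EPHA5 had 107 and 93 CPM at day 12, against 5.33 and 5.45 CPM at day 6 (log2 change 4.22), and the netrin receptor UNC5D had 39.9 and 33.8 CPM at day 12, against 0.344 and 0.429 CPM at day 6 (log2 change 6.56). ROBO1, the Slit receptor, was abundant and not called (804 and 811 CPM at day 12, against 883 and 852 CPM at day 6). Among semaphorins, SEMA5A rose (85.1 and 85.6 CPM at day 12, against 1.76 and 1.42 CPM at day 6, log2 change 5.74) and SEMA5B fell (12.1 and 13.7 CPM at day 12, against 135 and 129.8 CPM at day 6, log2 change -3.36), and SEMA3G had 0 reads at day 12 and 6.7 and 7.04 CPM at day 6, at least 110.2-fold lower. Of 11 tested matrix genes 7 rose and 4 fell. TNR, the tenascin of perineuronal nets, had 67.3 and 65.3 CPM at day 12, against 0.043 and 0.215 CPM at day 6 (log2 change 8.96), and RELN, reelin, had 29.9 and 25 CPM at day 12, against 2.75 and 2.88 CPM at day 6 (log2 change 3.28). HAPLN1, a link protein of hyaluronan, fell (0.446 and 0.64 CPM at day 12, against 16.7 and 14.1 CPM at day 6, log2 change -4.82).

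The BAF chromatin complex is known to exchange subunits when neural progenitors leave the cell cycle. In these cultures ACTL6A of progenitors had 37 and 37 CPM at day 12, against 72.4 and 72.8 CPM at day 6 (log2 change -0.97) and its neuronal counterpart ACTL6B had 105 and 93.5 CPM at day 12, against 49.4 and 50.04 CPM at day 6 (log2 change 0.99). SS18 had 86 and 90.4 CPM at day 12, against 127 and 128 CPM at day 6, and fell, while SS18L1, its neuronal counterpart, had 119.7 and 119 CPM at day 12, against 69.8 and 65 CPM at day 6, and rose. SMARCD2 had 24.9 and 24.7 CPM at day 12, against 130.3 and 142 CPM at day 6 (log2 change -2.45), and SMARCD3 had 44.3 and 54.1 CPM at day 12, against 6.23 and 6.22 CPM at day 6 (log2 change 2.98). DPF1, the neuronal PHD-finger subunit, rose as well (78.6 and 76.9 CPM at day 12, against 21.7 and 20.3 CPM at day 6, log2 change 1.89). Other subunits of this kind moved the other way. PHF10 of progenitors rose (40.2 and 41.3 CPM at day 12, against 28.7 and 28.2 CPM at day 6, log2 change 0.52), and the neuronal DPF3 fell (11.1 and 9.48 CPM at day 12, against 13.5 and 13.5 CPM at day 6, log2 change -0.39), a call lost without either day 6 library or without replicate 2 of day 12. Of all 23 tested subunits 10 were higher, 11 lower and 2 not called. Among 22 splicing regulators 13 were higher, 3 lower and 6 not called. PTBP1, the repressor of neuronal exons, had 42.7 and 40.9 CPM at day 12, against 171 and 170.5 CPM at day 6 (log2 change -2.03). PTBP2, its neuronal relative, rose slightly (162 and 165 CPM at day 12, against 128 and 134 CPM at day 6, log2 change 0.32). RBFOX1 had 101 and 113 CPM at day 12, against 15.3 and 16.5 CPM at day 6 (log2 change 2.75) and CELF5 had 242 and 231 CPM at day 12, against 38.2 and 43.9 CPM at day 6 (log2 change 2.53), while SRRM4, the regulator of microexons, was not called (252 and 265 CPM at day 12, against 307 and 275 CPM at day 6).

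Most genes of the respiratory chain and of stress responses fell, mostly by small factors. Of 13 mitochondrially encoded messenger RNAs 11 were lower, 1 was higher and 1 was not called, with sums of 27295 and 28930.2 CPM at day 12 and 43569 and 46098 CPM at day 6. All 6 that encode subunits of complex III, complex IV or ATP synthase fell, with sums of 16147 and 17356 CPM at day 12 and 30408 and 32399 CPM at day 6. The 7 subunits of complex I summed to 11148 and 11575 CPM at day 12 and 13161 and 13699 CPM at day 6. The mitochondrial genome took 3.41% and 3.61% of reads at day 12 and 4.95% and 5.27% at day 6, and its part in other results was not tested. Of 39 nuclear genes of the respiratory chain 2 were higher, 25 lower and 12 not called, and none of the calls reached 2-fold. The count of lower members was 14 without replicate 2 of day 6 and 16 without replicate 1 of day 12. Glycolysis genes fell in 11 of 21 and rose in 6. ENO2, the neuronal enolase, had 709.8 and 665 CPM at day 12, against 66.4 and 86.7 CPM at day 6 (log2 change 3.17), and ENO1 had 404 and 296 CPM at day 12, against 512 and 495 CPM at day 6 (log2 change -0.53). The day 12 libraries differed from each other at HK2 (11.2 and 0.811 CPM), SLC16A3 (16.5 and 3.24 CPM) and LDHA (131 and 88.7 CPM). Of 20 genes of the integrated stress and unfolded protein responses 2 were higher, 14 lower and 4 not called, with PHGDH of serine synthesis at 10.6 and 10.4 CPM at day 12, against 63.5 and 69.2 CPM at day 6. In the BCL2 family 4 of 15 tested genes were higher and 8 lower. HRK, a pro-apoptotic member of neurons, had 90.1 and 89.5 CPM in the day 12 cultures, against 2.71 and 3.13 CPM in the day 6 cultures (log2 change 4.94, adjusted p 3.13e-14 by edgeR), and PMAIP1, the pro-apoptotic NOXA, had 0.365 and 0.256 CPM at day 12, against 7.74 and 6.57 CPM at day 6 (log2 change -4.50).

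**Figure D3:**
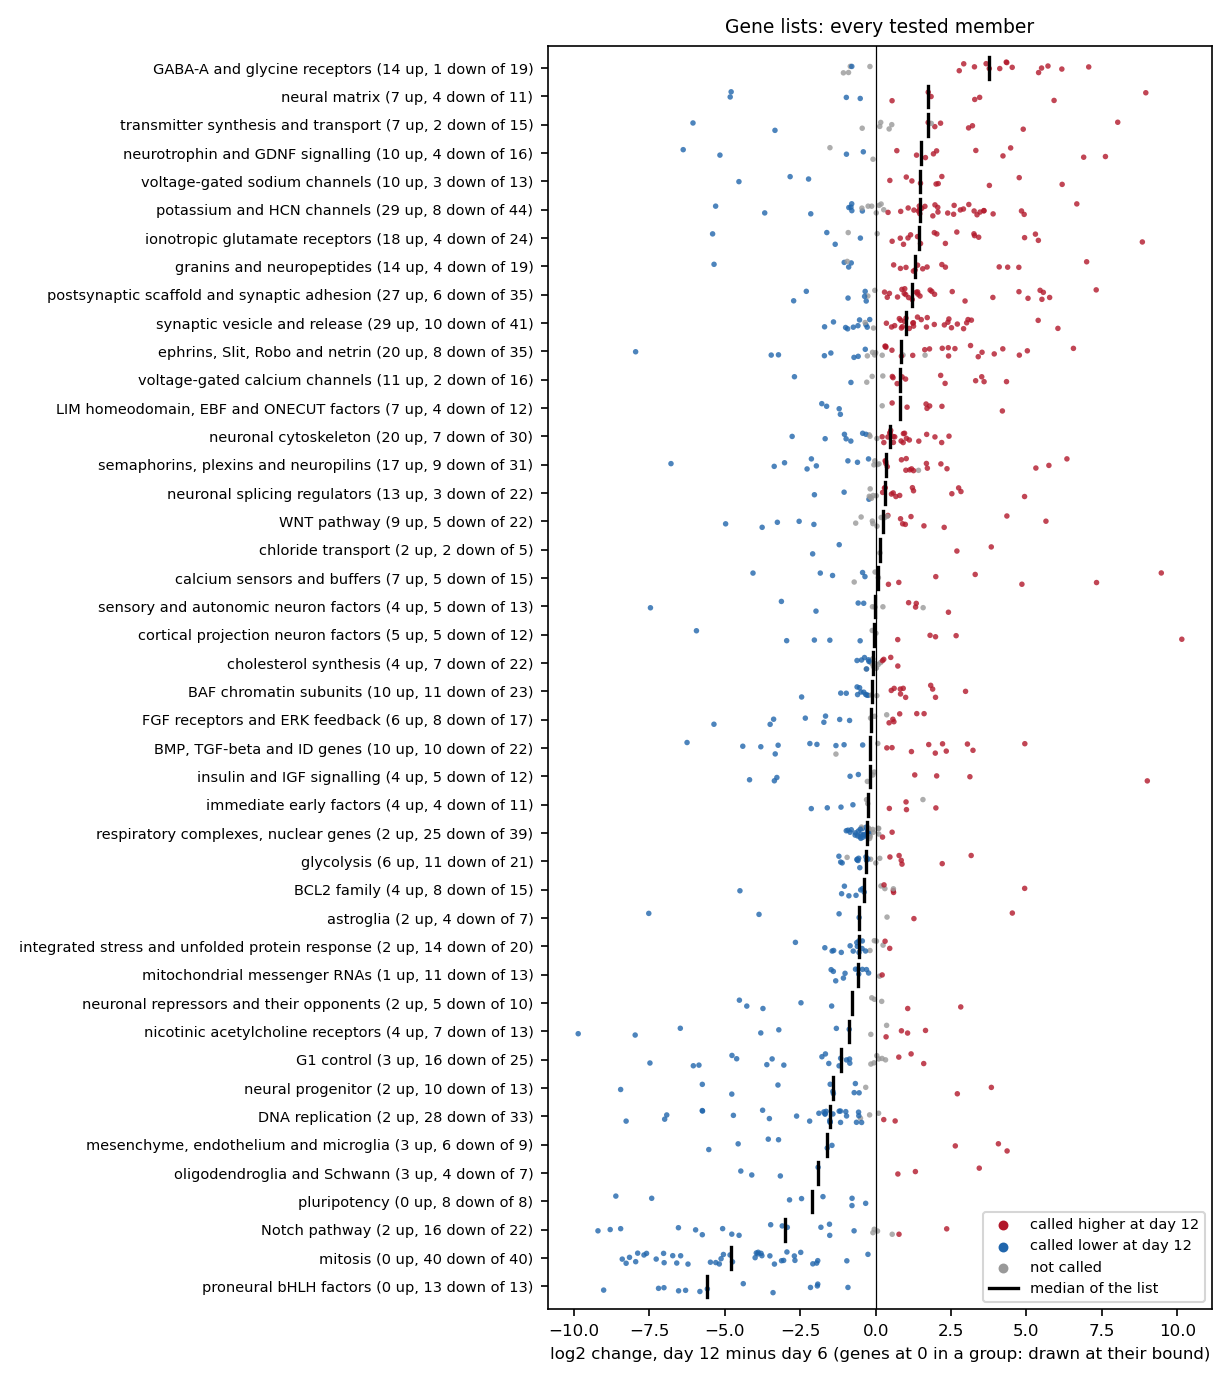
Log2 change from day 6 to day 12 of every tested member of 44 gene lists (points, coloured by call) with the median of each list (bar); lists are ordered by median. The proneural list (all 13 lower) and the mitosis list (all 40 lower) stand at the bottom and the inhibitory receptors (14 of 19 higher) at the top.

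Other lists had calls on both sides. Cholesterol synthesis had 4 of 22 members higher, 7 lower and 11 not called, with a median log2 change of -0.10. Without replicate 2 of either day the count of lower members was 4, and without replicate 1 of either day the count of higher members was 2. WNT genes had 9 of 22 tested members higher, 5 lower and 8 not called, and immediate early factors 4 of 11 higher and 4 lower. JUN, an immediate early factor, rose (146 and 156 CPM at day 12, against 77.9 and 70.9 CPM at day 6, log2 change 1.02) and JUNB fell (3.89 and 4.61 CPM at day 12, against 19 and 18.3 CPM at day 6, log2 change -2.13). SFRP1, a secreted WNT antagonist, had 13.6 and 16.3 CPM at day 12, against 217 and 189 CPM at day 6 (log2 change -3.76).

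Among protein-coding genes at a mean of at least 5 CPM, the 12 largest fitted rises were EOMES, CTXN3, MDGA2, HPCAL4, IRS4, TNR, GRIA1, PCDH7, SLC5A7, SLC4A10, IPCEF1 and MET. CTXN3, a cortexin, had 28.4 and 23.9 CPM at day 12 and 0 reads at day 6, at least 407-fold higher, and MDGA2, a regulator of neuroligins, had 10.7 and 9.77 CPM at day 12 and 0 reads at day 6, at least 159-fold higher. At that bound MDGA2 would lie below KCNIP1, which is not among the 12. PCDH7, a protocadherin, had 103 and 103 CPM at day 12, against 0.387 and 0.257 CPM at day 6 (log2 change 8.30), and MET, the receptor of hepatocyte growth factor, had 53.4 and 54.5 CPM at day 12, against 0.258 and 0.343 CPM at day 6 (log2 change 7.47). SLC4A10, a sodium-coupled bicarbonate transporter of neurons, had 43.4 and 40.1 CPM at day 12, against 0.172 and 0.172 CPM at day 6 (log2 change 7.89). The 12 largest fitted falls were OLIG3, E2F2, C2orf91, CHRNA1, HEYL, ACSF2, ARSF, PAX3, MFNG, DPPA4, KIF19 and NOTCH1. All 12 had fewer than 1 CPM at day 12, so their order is uncertain, and E2F2 at its bound would lie below AURKB and RRM2, which are not among them. PAX3, a factor of the dorsal neural tube, had 0.0405 and 0.299 CPM at day 12, against 76.9 and 75.7 CPM at day 6 (log2 change -8.80). KIF19, a kinesin, had 0.284 and 0.128 CPM at day 12, against 79.2 and 78.7 CPM at day 6 (log2 change -8.54), and C2orf91 had 0.122 and 0.0854 CPM at day 12, against 107 and 109 CPM at day 6 (log2 change -9.96). Of the 12 falls, HEYL, MFNG and NOTCH1 belong to the Notch list, OLIG3 to the proneural list, E2F2 to G1 control, CHRNA1 to the nicotinic receptors and DPPA4 to pluripotency.

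The share of genes called higher grew with the span of the gene. The median gene span, introns included, was 60.7 kb for the 2440 protein-coding genes called at least 2-fold higher and 27.4 kb for the 2164 called at least 2-fold lower, against 34.6 kb for all 14096 protein-coding genes tested. Of the 731 genes that span over 300 kb, 60.5% were higher and 21.8% lower, with a median log2 change of 0.82. Of the 2643 genes of up to 10 kb, 25.3% were higher and 43.5% lower, with a median of -0.21. The median rose through every class between them, at -0.12, 0.03 and 0.29. Classes of transcript differed as well. Of 920 lincRNAs 388 were higher and 138 lower. Of 1098 antisense genes, whose unstranded reads cannot be told from those of overlapping genes, 370 were higher and 142 lower. Of 2549 processed pseudogenes, whose reads can stem from their parent genes, 172 were higher and 919 lower. Protein-coding genes divided evenly under TMM scaling, with 4968 higher and 5059 lower. The balance depends on the scaling, since library totals gave 6834 higher and 6013 lower over all genes tested.

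**Figure D4:**
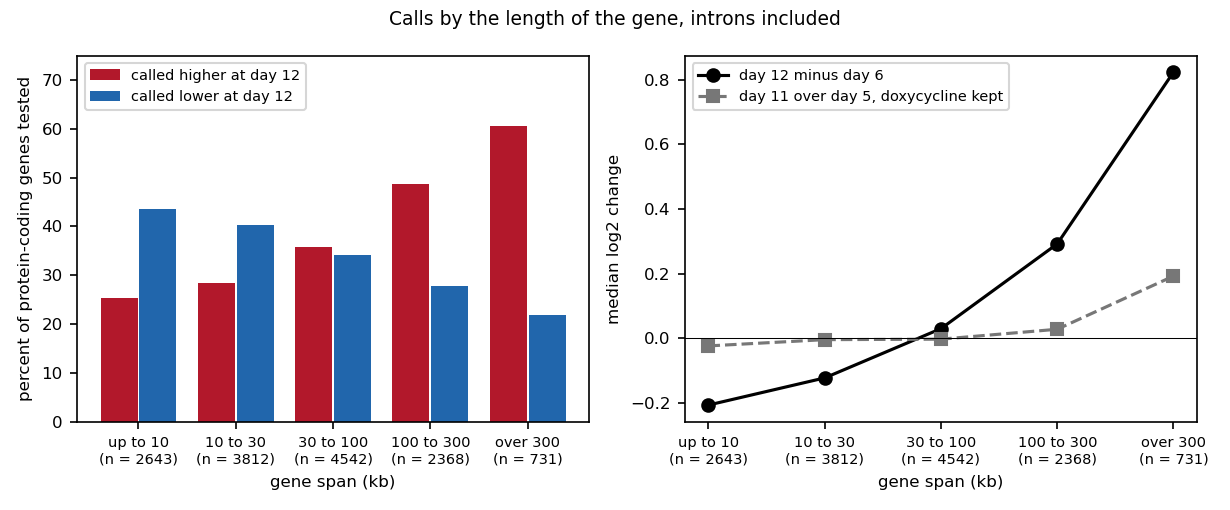
Left, percent of protein-coding genes called higher and lower at day 12 in 5 classes of gene span; right, median log2 change of the same classes for day 12 minus day 6 and for day 11 over day 5 with doxycycline kept. The share called higher was 60.5% in the longest class and 25.3% in the shortest.

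The same interval was also sampled in 4 other libraries with FGF2, a fibroblast growth factor given at 20 ug/ml according to the labels. All 8 libraries entered a single fit with shared scaling and spread, so the calls with and without FGF2 are not independent. The day 12 cultures had FGF2 during the last 6 days only and the day 6 cultures during the first 6 days, so the timing of FGF2 differed between the days. The label fields disagree on whether late FGF2 began on day 6 or day 7. There 13201 genes (65.5%) were called between day 12 and day 6, 6566 (32.6%) higher and 6635 (32.9%) lower. Of the 3497 genes called at least 2-fold higher without FGF2, 3206 (91.7%) were called higher with it and 1 lower, and of the 2934 called at least 2-fold lower, 2722 (92.8%) were called lower with it and 7 higher. Across 12143 genes at a mean of at least 5 CPM the log2 changes had a Pearson r of 0.98, a description across genes that are not independent replicates. NEUROG2 had 49.3 and 53.1 CPM with FGF2 at day 12, against 7831 and 7713 CPM with FGF2 at day 6. The test of the difference between the time effects called 147 genes (0.73%), 130 (0.645%) with a more positive change with FGF2 and 17 (0.0844%) with a more negative one. That count rested on single libraries. It was 1345 without replicate 1 and 353 without replicate 2 of day 6 with FGF2, a pair that differed far more than the other pairs (chi-square per degree of freedom 21.2, against 3.02 to 3.46). Without 1 of the other libraries it lay between 78 and 100, and 62 of the 147 genes were called whichever of the 8 libraries was left out. With the replicate number as a block 206 genes were called, 33 of them negative. The 147 include feedback genes of the ERK pathway. DUSP6, an ERK phosphatase, had 36.3 and 32.3 CPM at day 12, against 21.8 and 23.3 CPM at day 6 without FGF2 and 223 and 253 CPM at day 12 against 20.4 and 19.7 CPM at day 6 with it (difference of log2 changes 2.96, adjusted p 2.53e-08 by edgeR), and shares 40.5% of its exonic length with another gene. SPRY4, a sprouty inhibitor, had 8.6 and 6.44 CPM at day 12, against 89.4 and 80.9 CPM at day 6 without FGF2 and 68.1 and 68 CPM at day 12 against 79.3 and 57.6 CPM at day 6 with it (difference 3.49, adjusted p 2.16e-07 by edgeR). ETV4, an ETS factor, had 2.31 and 1.15 CPM at day 12, against 3.22 and 3.13 CPM at day 6 without FGF2, and 96.7 and 99.6 CPM at day 12 against 3.05 and 3.22 CPM at day 6 with it (difference 5.83, adjusted p 2.78e-08 by edgeR). The fall of ETV4 without FGF2 was not called without replicate 2 of day 12. All 3 were higher at day 12 in the cultures that then received FGF2 than in those that did not.

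A separate run of the series kept doxycycline on until day 11, with 1 library at day 11 and 1 at day 5 and so no replicate check and no test. NEUROG2 had 1026 CPM at day 11 and 1512 CPM at day 5 there, and 0.448 CPM before induction at day 0. It was thus still expressed at day 11, far above its level at day 0. Of 20122 genes, 717 (3.56%) were at least 2-fold higher at day 11 and 719 (3.57%) at least 2-fold lower, on a log2 scale of CPM plus 1. With 0.25 CPM added instead the counts were 1180 and 1115, and with 5 CPM they were 331 and 370. Among genes at 5 CPM or more in either of these libraries, 1934 were called at least 2-fold higher after withdrawal. Of those, 487 (25.2%) were at least 2-fold higher with doxycycline kept, 1434 (74.1%) moved by less than 2-fold and 13 were at least 2-fold lower. Of 1498 genes called at least 2-fold lower, 425 (28.4%) were at least 2-fold lower with doxycycline kept, 1070 (71.4%) moved by less and 3 were higher. The shares that moved alike were 27.7% and 31.6% with 0.25 CPM added, and 15.4% and 20.2% with 5 CPM. The tables of the runs were scaled separately, and the days differ, so levels are set side by side only. The titles also differ, with hES-N1 in the doxycycline run and hES-N2G1 or hES-N2G2 in the compared cultures. The labels do not say what these names mark. Day 5 of that run was not the same starting point as day 6. NEUROG2 itself was well below the levels given above for day 6 of the compared cultures. Kv1 subunits summed to 52.1 CPM at that day 5, against 9.71 and 9.36 CPM at day 6. Mitochondrial complex I messenger RNAs lay close, at 13693.5 CPM against 13161 and 13699 CPM. A move of less than 2-fold under doxycycline thus does not say whether a gene had already changed by day 5.

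With doxycycline kept, SCN2A had 123 CPM at day 11 and 26.4 CPM at day 5. NTRK2 had 95.1 CPM at day 11 and 13.3 CPM at day 5. On the same days NEUROD1 had 0.855 CPM and 24.1 CPM, NHLH1 78.6 CPM and 828 CPM, and OLIG3 0 CPM and 4.58 CPM. The later library was on the same side for these 5 genes as after withdrawal, which was not tested. Most genes called at least 2-fold apart after withdrawal moved by less than 2-fold there. EOMES differed, with 0.244 CPM at day 11 and 0.164 CPM at day 5 under doxycycline, against 82.1 and 75 CPM at day 12 after withdrawal. IRS4 had 4.06 CPM at day 11 and 3.34 CPM at day 5, SLC17A6 277 CPM and 294 CPM, and RET 316 CPM and 391 CPM, none of them 2-fold apart with doxycycline kept. All of them were already higher at that day 5 than at day 6 of the compared cultures. The muscle-type nicotinic subunits summed to 17.3 CPM at day 11 and 23.4 CPM at day 5 with doxycycline kept, and to 16.3 and 14.3 CPM at day 12 and 211 and 199.8 CPM at day 6 in the compared cultures.

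The uninduced cultures of that run, 1 library a day and not tested, give the background of the same genes. Without doxycycline NEUROG2 had 6.45 CPM at day 11 and 1.37 CPM at day 5, and EOMES 0.031 CPM and 0.0319 CPM on those days, a single read in each. SCN2A had 1.64 CPM at day 11 and 2.01 CPM at day 5 without doxycycline, and NTRK2 0.807 CPM and 0.223 CPM. These genes were thus low in both uninduced libraries. IRS4 was not, with 113 CPM at day 11 and 3.7 CPM at day 5 without doxycycline. RET had 9.31 CPM at day 11 and 40.7 CPM at day 5 in the uninduced cultures.

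**Figure D5:**
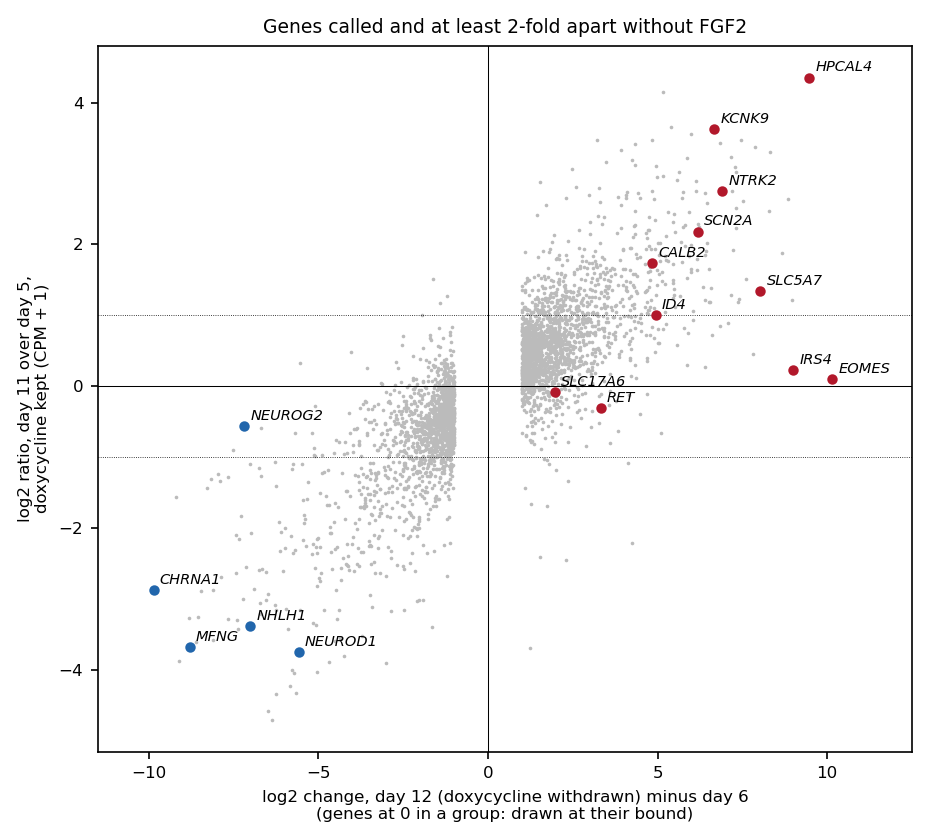
Log2 change from day 6 to day 12, with doxycycline withdrawn, against the log2 ratio of day 11 over day 5 with doxycycline kept, for genes called at least 2-fold apart and at 5 CPM or more in either doxycycline library (grey), with 16 named genes coloured by direction and dotted lines at 2-fold; EOMES and IRS4 were below 5 CPM in both. Across 12138 genes at a mean of at least 5 CPM the values had a Pearson r of 0.72, and NEUROG2 and EOMES lie away from the trend.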

How the data were processed

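RNA was extracted with Trizol, made into TruSeq RNA v2 libraries, which keep no strand, and sequenced for 50 cycles from one end on an Illumina HiSeq, per the labels' protocols. The authors deposited raw read counts per gene. Subread and featureCounts 1.5.0 on GRCh38 are named in the submitters' processing notes, while aligner settings and the gene annotation release are not given in the sources used here. Because strand was not kept, reads of overlapping genes cannot be told apart, and processed pseudogenes and families can share reads. Gene names, spans and exon overlaps came from GENCODE release 29 on GRCh38, which named 56996 of 60554 identifiers and left 3558 without a name. The tables hold 21 further per-sample columns, repeats of counts or normalized values inside the authors' other files, which were not used.

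The 8 libraries of the FGF2 set (22802501 to 30014661 counts) entered a single edgeR 4.0.16 fit (R 4.3.3), with 1 mean per group, filterByExpr, TMM and quasi-likelihood tests, two-sided, adjusted over 20142 genes. CPM are counts scaled to 1000000 reads. A gene at 0 in a group was set to 3 counts over that group for a bound, and ratios with 1 to 3 counts carry exact binomial 95% intervals. Both cover counting error only. For the doxycycline run 1 CPM was added before ratios. The single libraries of that run were not tested. Scripts were tested on simulated data. Replicates of each group differed by more than sampling noise (chi-square per degree of freedom 3.02 to 3.46, and 21.2 for day 6 with FGF2) and were counted separately. Replicate numbers were not used to pair the compared libraries. The deviations between replicates of the days had a correlation of 0.05 across 12170 genes, which cannot show whether the libraries were paired.

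The comparison, the 44 gene lists (956 genes) and the rule for named genes were chosen with earlier results of these data known. The rule took NEUROD1 and the 4 marker genes, the 12 largest rises and falls at a mean of at least 5 CPM with a symbol and one direction across the pairs of equal number, genes of highest CPM, all members of lists of up to 24 genes, and the leading members of longer lists. Not all are used here, and some genes are not reported.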

Additional observations from a re-analysis of the deposited data

Results flagged for a closer look

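For 13 genes named above, the change from day 6 to day 12 differed between cultures with and without FGF2 in edgeR's test of the difference (adjusted p under 0.05). Values below are the log2 change with FGF2 minus the log2 change without it. Of the 13, the 5 genes DUSP6, ETV4, HAPLN1, RET and SPRY4 were called whichever of the 8 libraries was left out. The other calls were each lost without at least 1 library, with the same direction throughout. Their causes were not tested, and the timing of FGF2 differed between the days.

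Among genes of the ERK response the difference was 5.83 for ETV4, 3.49 for SPRY4 and 2.96 for DUSP6. HAPLN1, the hyaluronan link protein, had 5.95 and 5.5 CPM at day 12 against 15.2 and 13.4 CPM at day 6 with FGF2, and a difference of 3.50 (adjusted p 7.94e-06 by edgeR). Its fall was thus shallower in the cultures with FGF2. The vesicle protein SV2B differed by 1.33, with a smaller fall with FGF2. JUNB (0.92) and the kainate receptor GRIK2 (0.73) also fell less with FGF2. RET (0.90), the sodium channel SCN9A (0.74) and the active zone scaffold RIMS1 (0.71) rose more with FGF2. HRK, the pro-apoptotic BCL2 relative, rose less, with 46.8 and 48.6 CPM at day 12 against 3.4 and 3.11 CPM at day 6 and a difference of -1.07. JUN also rose less (-0.70), and SOX2 fell further (-0.61).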

How the results depend on the processing

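The call count for day 12 against day 6 without FGF2 (12895 genes) stayed within 1.5 times under every alternative run, from 9578 of 12888 genes at a filter of at least 5 CPM in 2 libraries to 13468 of 19089 when only the 4 compared libraries were fitted. DESeq2 called 11896 genes and limma voom 12817. Without 1 compared library at a time the calls ranged from 11217 to 11420, with the lone library assumed to vary like the other groups. Genes called at least 2-fold numbered 1954 higher and 1681 lower at the stricter filter, which tests fewer genes. Scaling by library totals moved the median log2 change of all genes by 0.06 and gave 6834 higher and 6013 lower genes. With FGF2 the calls ranged from 11408 to 13412 without 1 library at a time. With the replicate number as a block, 13200 genes were called without FGF2 and 13474 with it. The block raised the calls for the difference between time effects to 206, of which 33 were negative. Without 1 library at a time, an alternative added after seeing the data, they ranged from 78 to 1345, with 73 to 910 positive and 5 to 435 negative. The numbers are not known to mark shared cultures. With doxycycline kept, a pseudocount of 0.25 CPM gave 1180 genes higher and 1115 lower by 2-fold, and one of 5 CPM gave 331 higher and 370 lower. Of the genes called 2-fold after withdrawal, 297 to 535 were also 2-fold higher there and 303 to 473 also 2-fold lower.

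Of 201 named genes none turned its direction past the threshold, 6 lost a call and 4 gained one under at least 1 alternative. Lost calls, each without 1 library, were CHRNB2 and GAD2 (day 6 replicate 1), CSF1R (day 6 replicate 2), ETV4 (day 12 replicate 2), SLC16A3 (day 12 replicate 1) and DPF3 (either day 6 library or day 12 replicate 2). Of 12 alternatives, HK2 gained a call under 5, POU4F1 under 7, TUBA1A under 3 and SRRM4 under 1. HK2 fell by 3.86 on the log2 scale without replicate 1 of day 12. Of 616 list counts under alternatives 30 moved by over 1.5 times, 12 of them by more than 1 member. With only the 4 compared libraries fitted, 6 splicing regulators in place of 3 were lower. With 2 libraries a day, small changes near the threshold are the least certain, and genes under about 1 CPM have too few reads to rank their fold changes.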
